A study of Homo sapiens with 6 samples.

Results

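The lysosome is the acidic compartment in which cells break down proteins, glycans and lipids delivered by endocytosis and autophagy. Its enzymes are made in the secretory pathway, tagged with mannose 6-phosphate and carried to the organelle, whose limiting membrane is lined with heavily glycosylated proteins such as LAMP1 and LAMP2. Many of these genes are known targets of TFEB, TFE3 and MITF, the MiT/TFE transcription factors, which bind a palindromic element named CLEAR in their promoters.

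The 47 genes described here encode lysosomal proteases and their inhibitors, glycosidases, sulfatases, lipid hydrolases and their activators, membrane proteins, progranulin and the 3 MiT/TFE factors. They were chosen as a named list, and their probe sets, groups of short oligonucleotides on an Affymetrix array that together give one signal for a transcript, were found by the annotated gene symbol. Of the 47, 46 had at least 1 of the array's 54675 probe sets to themselves, 118 probe sets in all, out of 19775 genes so represented on the array. GLB1, the beta-galactosidase gene, was read only by a probe set shared with TMPPE. Testing was limited to probe sets with signals over 17.9 on 3 or more of the 6 arrays, a level set at the median of the whole table without the array's own controls. That left 89 of the 118 probe sets and 45 of the genes. CTSZ, which encodes cathepsin Z, was not kept: its 2 probe sets ran from 3.2 to 15.6 over the 6 arrays.

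HEK293 cells, an established line from human embryonic kidney, received either a control siRNA or an siRNA against BAHD1, a chromatin protein that takes part in gene silencing, by lipid transfection, and total RNA was taken 72 h later. There were 3 biological replicates of each, with 1 array per sample. No genotype or further agent differed between the groups. The labels name no separate culture dates, so p-values measure the spread between these samples, which may in part be technical.

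Median signals per array ran from 15.9 to 17.9 in controls and from 17.5 to 19.5 with BAHD1 siRNA. The BAHD1 transcript, read by 1 probe set, was at 76.0% of the control level (log2 fold change -0.40 ± 0.15 SE with one variance prior, limma adjusted p = 0.251), and its groups touched (lowest control signal 46.7, highest BAHD1 siRNA signal 46.8). The depletion was thus not past the test at the RNA level. Spiked poly-A control RNAs were higher in the BAHD1 siRNA arrays (mean log2 signal 9.21 ± 0.17, SD, n = 3) than in the control arrays (8.63 ± 0.12, SD, n = 3). GAPDH 3' over 5' signal ran from 0.926 to 0.955 in controls and from 0.956 to 0.966 with BAHD1 siRNA. The part of either in the results below was not tested. All 6 genes listed as HEK293 markers were kept. By their brightest probe sets, 2 of these rose and 1 fell in the fit used below, which called 5.52% of all genes. In 5 of the 6 the groups did not overlap, against 28.2% of all genes. None of the 8 macrophage markers and neither of the 2 keratinocyte markers on the array was kept, and 1 of 5 fibroblast markers was (signal summed over the 5 from 163 to 198 in controls and from 184 to 249 with BAHD1 siRNA).

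Lysosomal genes changed in both directions, mostly by small amounts. Probe sets for LAMP2, ASAH1, CTSH and CTSC rose and those for NEU1, PSAP and LAMP1 fell after BAHD1 siRNA. A CTSS probe set was also called higher, but it passed the filter only through the BAHD1 siRNA arrays and so had to differ. In RNA of whole cultures, fewer cells with a transcript and less of it per cell cannot be told apart. These calls come from limma with a variance prior that follows the signal (the intensity-trend fit), at an adjusted p under 0.05 over all 27458 kept probe sets. It called 10 of the 89 lysosomal probe sets (11.2%), 6 higher and 4 lower, against 4.45% of all probe sets. With the filter set on the mean over all arrays, which drops the CTSS probe set, it called 9, of which 5 were higher. Calls over all probe sets were 1297 with that filter and 1221 without it. With a single variance prior, limma called none of the 89 and 0% of all probe sets (smallest adjusted p among the lysosomal ones 0.112). An unadjusted p under 0.05 was found for 21 of the 89 with one prior, against 17.6% of all probe sets, and for 25 in the intensity-trend fit, against 20.9% of all. Below, "rose" and "fell" refer to the intensity-trend fit, and fold changes are BAHD1 siRNA minus control on the log2(signal + 1) scale, which understates changes of dim probe sets.

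**Figure D1:**
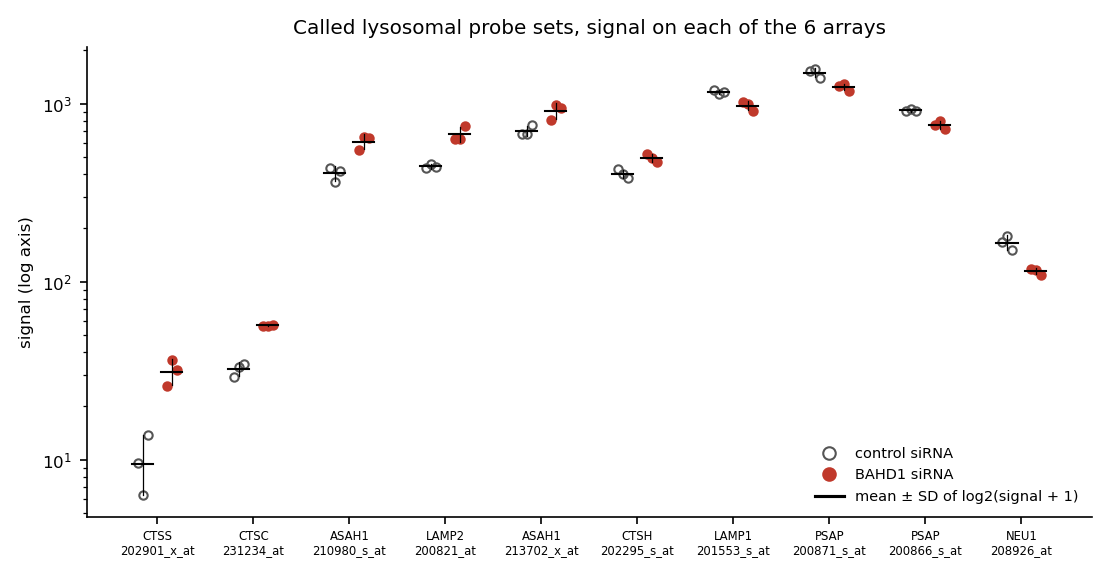
Signal on a log axis for the 10 lysosomal probe sets called in the intensity-trend fit, ordered by fold change. Open circles are the 3 control siRNA arrays, filled circles the 3 BAHD1 siRNA arrays, and lines the mean ± SD of log2(signal + 1); the groups do not overlap in any of the 10, and CTSS, at 6.3 to 13.7 in controls, lies below the filter level of 17.9 there.

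Taking each gene by its brightest kept probe set, 3 of 45 rose (LAMP2, ASAH1 and CTSH) and 3 fell (NEU1, PSAP and LAMP1), or 13.3%, against 5.52% of all 12529 genes. In 17 of the 45 (37.8%) the groups did not overlap, 6 with higher and 11 with lower BAHD1 siRNA values, against 28.2% of all genes. An unadjusted p under 0.05 was found for 13 of the 45 (28.9%), against 23.7% of all genes. The median log2 fold change over the 45 was -0.05, against 0.02 over all genes, and 26 of the 45 were lower. Of the 45, 22 lay in the brightest quartile of kept probe sets, where 9.35% of all probe sets were called and 42.1% were higher, compared with 0.481% and 60.9% in the dimmest. After quantile normalisation the share without overlap was 28.9% of the lysosomal genes and 28.1% of all genes. These shares were 31.1% and 28.4% after cyclic loess normalisation, and 42.2% and 28% with array medians centred.

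**Figure D2:**
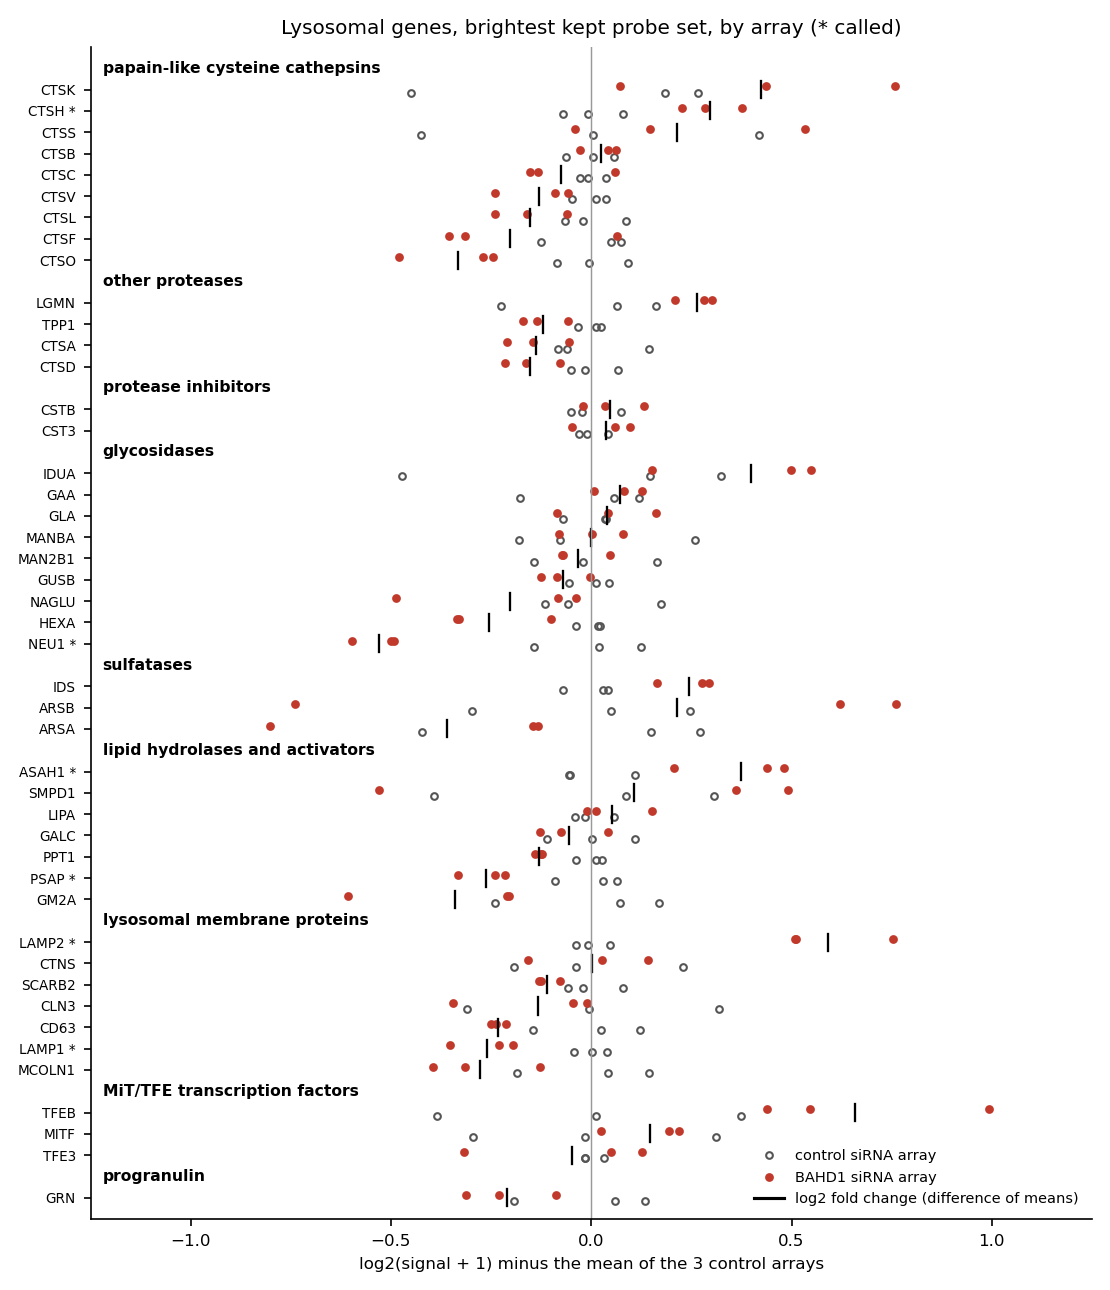
Each lysosomal gene's brightest kept probe set, as log2(signal + 1) minus the mean of the control arrays, with genes grouped by role. Open circles are control siRNA arrays, filled circles BAHD1 siRNA arrays and bars the log2 fold change; asterisks mark the 6 called genes, and most others lie within 0.5 of the control mean with groups that overlap.

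**Figure D3:**
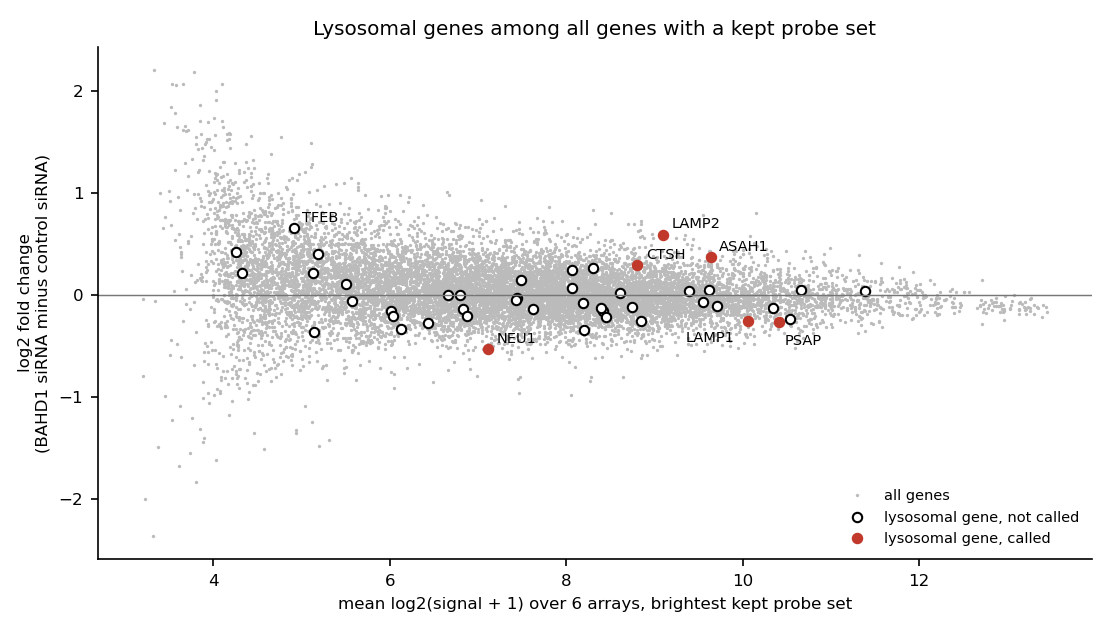
Log2 fold change against mean log2(signal + 1) for 12529 genes (grey), with the 45 lysosomal genes outlined and the 6 called ones filled. The lysosomal genes spread over both sides of 0, from -0.53 for NEU1 to 0.66 for TFEB, and the scatter of all genes widens toward low signal.

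None of the 3 MiT/TFE factors, which act upstream of many lysosomal genes, passed the test. TFEB, the factor best known for driving lysosome formation, gave control signals of 30.0, 17.3 and 23.1 and BAHD1 siRNA signals of 33.9, 31.4 and 46.6. All BAHD1 siRNA values lay above all control values, by a small margin at the closest pair, and 28.2% of all genes likewise had no overlap. The signals were dim, with control replicate 2 below the filter level of 17.9. The log2 fold change of 0.66 ± 0.27 (SE) missed the threshold (limma adjusted p = 0.190, intensity trend), and its other probe set stayed below the filter on all 6 arrays. TFE3, a close relative of TFEB, had 4 kept probe sets that did not move alike. The brightest read 173, 173 and 179 in controls and 140, 181 and 191 with BAHD1 siRNA, where replicate 1 was below and the other two above the controls (-0.05 ± 0.12). The others were at -1.48, 0.46 and 0.49, and the first of these was kept through the control arrays alone. MITF, the factor of this family known from pigment cells, read 138, 168 and 211 in controls and 173, 194 and 198 with BAHD1 siRNA, all within the control range (0.15 ± 0.14). Its other kept probe set was at 0.00, and no other probe set of the 3 factors passed.

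The values of possible MiT/TFE targets were set beside their promoters. For this, the 250 bases upstream of the annotated start were taken from a set of RefSeq promoters (GRCh38.p14). That set held 34 of the 47 genes. Of the called genes, LAMP2, ASAH1, CTSS and PSAP were not matched and enter no count below. The E-box CACGTG, which forms the centre of CLEAR, was searched together with the longer core TCACGTGA; each reads the same on both strands, and every match of the longer one is also a match of the shorter. An E-box was present in 9 of the 34 promoters (26.5%), against 6.49% of 27305 promoters of all genes. The longer core was present in 4 of the 34 (11.8%), those of CTSA, GAA, LAMP1 and MCOLN1, against 0.89% of all. The sequences given are those of LAMP1 and NEU1, which fell and hold an E-box, CTSA and MCOLN1, which hold the longer core and were not called, and CTSH, which rose and holds neither in this window. Sequences run 5′ to 3′ on the gene's strand, and capitals mark the E-box. LAMP1 lies at chr13:113296989-113297238 on the plus strand, NEU1 at chr6:31862822-31863071 on the minus strand, CTSA at chr20:45891085-45891334 and MCOLN1 at chr19:7522374-7522623 on the plus strand, and CTSH at chr15:78945047-78945296 on the minus strand.
LAMP1: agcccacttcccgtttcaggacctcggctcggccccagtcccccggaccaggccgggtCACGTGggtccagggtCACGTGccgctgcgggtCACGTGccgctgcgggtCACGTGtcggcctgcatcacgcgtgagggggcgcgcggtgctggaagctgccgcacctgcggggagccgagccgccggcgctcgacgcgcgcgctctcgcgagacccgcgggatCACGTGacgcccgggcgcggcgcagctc
NEU1: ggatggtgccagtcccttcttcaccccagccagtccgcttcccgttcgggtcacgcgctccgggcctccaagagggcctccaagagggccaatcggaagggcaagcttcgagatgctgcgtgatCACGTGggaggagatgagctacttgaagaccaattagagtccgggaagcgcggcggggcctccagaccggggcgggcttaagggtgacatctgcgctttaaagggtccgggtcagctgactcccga
CTSA: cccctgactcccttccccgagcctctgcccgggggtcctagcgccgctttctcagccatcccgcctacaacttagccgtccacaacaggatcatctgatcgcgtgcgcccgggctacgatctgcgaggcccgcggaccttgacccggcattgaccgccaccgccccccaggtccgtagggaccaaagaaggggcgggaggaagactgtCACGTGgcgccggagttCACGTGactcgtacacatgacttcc
MCOLN1: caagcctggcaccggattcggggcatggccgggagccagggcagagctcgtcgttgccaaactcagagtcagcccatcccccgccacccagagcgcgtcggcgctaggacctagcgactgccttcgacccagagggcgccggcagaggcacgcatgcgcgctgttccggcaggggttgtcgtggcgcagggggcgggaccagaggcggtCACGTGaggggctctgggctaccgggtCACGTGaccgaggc
CTSH: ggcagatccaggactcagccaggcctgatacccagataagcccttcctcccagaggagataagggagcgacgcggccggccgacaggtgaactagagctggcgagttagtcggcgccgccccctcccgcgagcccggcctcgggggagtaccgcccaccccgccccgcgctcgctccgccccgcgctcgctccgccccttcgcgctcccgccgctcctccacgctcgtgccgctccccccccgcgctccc

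LAMP1 held 5 E-boxes in this window, CTSA and MCOLN1 held 2 each and NEU1 held 1. Of the 9 genes with an E-box, all of them measured, 8 were lower (CD63, CLN3, CTSA, CTSD, CTSF, LAMP1, MCOLN1 and NEU1) and GAA was at 0.07, with a median of -0.20. Only LAMP1 and NEU1 of these passed the test. Groups overlapped in CLN3, CTSA, CTSF and MCOLN1, and 1 other probe set each of CLN3 and LAMP1 was higher, at 0.21 and 0.05. Of the 23 measured genes with a promoter entry and no E-box, 12 were lower and the median was -0.03. Over all genes with a promoter entry, 50.4% of the 918 with an E-box were lower (median -0.01), against 46.5% of the 9321 without (median 0.02). For the longer core these values were 61.8% of 173 genes (median -0.07) and 46.6% of 10066 (median 0.02). No test was made of these counts, a match is not a bound site, and MiT/TFE binding was not measured. Signal levels of genes with and without an E-box were not compared.

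Of the membrane proteins, LAMP2 rose and LAMP1 fell, both read by their brightest probe sets. LAMP2, a glycoprotein of the lysosomal membrane, gave signals of 433, 459 and 442 in controls and 633, 635 and 751 with BAHD1 siRNA by its brightest probe set. The groups were far apart relative to their spread, and BAHD1 siRNA replicate 3 was the highest. Its level was at 151% of control, a log2 fold change of 0.59 ± 0.08 (SE; limma adjusted p = 0.00518, intensity trend). However, the other 3 kept probe sets of LAMP2 did not rise: they were at -0.18, -0.10 and -0.01. The platform annotation pairs the probe set that rose with the RefSeq record of the LAMP-2B transcript and the one at -0.01 with that of LAMP-2A. These transcripts differ in their last exon, which encodes the membrane anchor and the short cytosolic tail. Probe positions on these transcripts were not used here.

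LAMP1, with LAMP2 a major glycoprotein of the lysosomal membrane, read 1198, 1132 and 1168 in controls and 1018, 993 and 912 with BAHD1 siRNA. Every BAHD1 siRNA value was below every control value, and the fall was to 83.5% of control (-0.26 ± 0.07 SE, limma adjusted p = 0.0461, intensity trend). A second probe set was at -0.29 with groups that did not overlap (adjusted p = 0.0630, intensity trend), and the other at 0.05. After quantile or cyclic loess normalisation the call on LAMP1 was lost (adjusted p = 0.0505 and 0.0622).

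CD63, a tetraspanin of late endosomes and lysosomes, had 1 probe set at -0.23 without overlap, and SCARB2, the receptor that carries glucocerebrosidase to the lysosome, had 3 between -0.20 and -0.11. MCOLN1, a calcium channel of the lysosomal membrane, was at -0.28. The cystine exporter gene CTNS was at 0.00 and CLN3, whose loss causes a form of Batten disease, at -0.13 with its second probe set at 0.21. None of these 5 passed. By their brightest probe sets, 5 of the 7 membrane protein genes were lower and 2 higher.

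**Figure D4:**
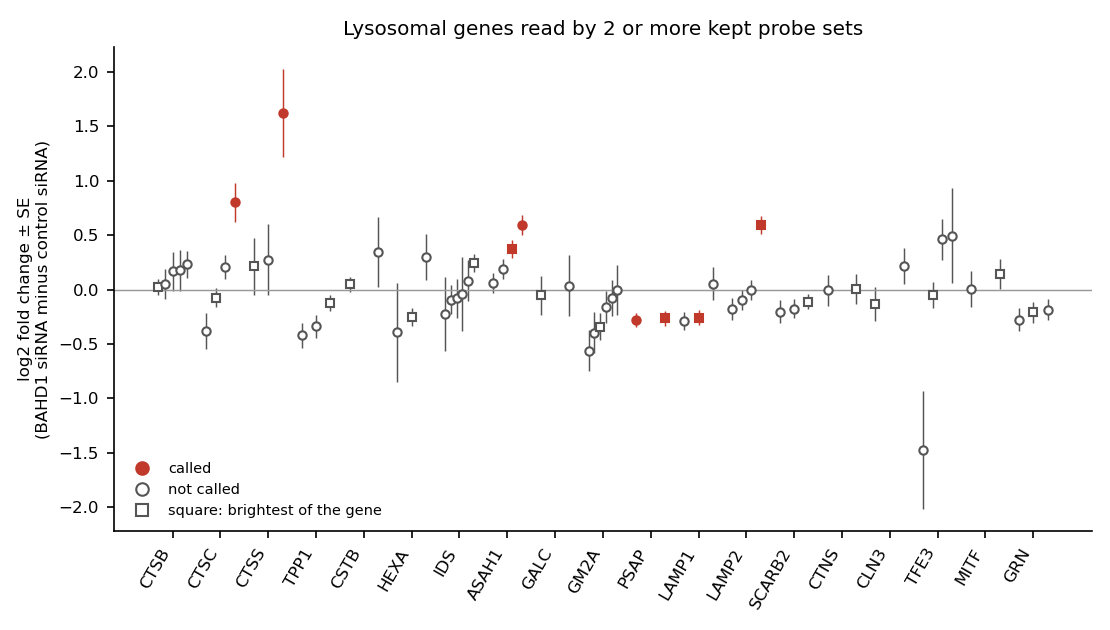
Log2 fold change ± SE (intensity-trend fit) of every kept probe set for the 19 lysosomal genes with 2 or more, squares marking the brightest of each gene and filled symbols the called ones. PSAP's 2 probe sets agree, whereas LAMP2, CTSC and CTSS each have 1 called probe set well above the others.

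Among the papain-like cysteine cathepsins, the proteases that carry out much of lysosomal protein breakdown, CTSH rose by its only probe set. CTSH, an aminopeptidase, read 427, 401 and 384 in controls and 524, 492 and 472 with BAHD1 siRNA. The 3 BAHD1 siRNA values all lay above the highest control, at 123% of control (0.30 ± 0.08 SE, limma adjusted p = 0.0488, intensity trend). With array medians centred, or with any 1 array left out, this call was lost (adjusted p = 0.0741 for centring and 0.0768 to 0.137 for the 6 arrays left out).

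CTSS encodes cathepsin S, which antigen-presenting cells use to cleave the invariant chain of MHC class II. One of its 3 probe sets read 9.6, 6.3 and 13.7 in controls and 26.0, 36.3 and 31.8 with BAHD1 siRNA. All controls were below the filter level and all BAHD1 siRNA values above it, so this probe set entered the test only because of its BAHD1 siRNA values and had to differ. It rose by 1.62 ± 0.41 (log2, SE; limma adjusted p = 0.0421, intensity trend). The call was lost after quantile normalisation (adjusted p = 0.0559) and after cyclic loess normalisation. The gene's other 2 probe sets were at 0.21 and 0.27 with groups that overlapped. Summed over the 8 macrophage markers, signals ran from 44.8 to 73.4 in controls and from 62.6 to 83.6 with BAHD1 siRNA, and 5 of the 8 were below the filter level on all 6 arrays. CD74, the invariant chain gene, and CIITA, the master regulator of MHC class II, had no probe set kept.

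CTSC, the dipeptidyl peptidase that activates granule serine proteases, showed a comparable split. One dim probe set read 29.1, 33.2 and 34.6 in controls and 56.7, 56.6 and 57.2 with BAHD1 siRNA, where the 3 values were nearly equal. It rose to 174% of control (0.80 ± 0.18 SE, limma adjusted p = 0.0307, intensity trend). The gene's 3 brighter probe sets were at -0.38, -0.08 and 0.20, each with groups that overlapped.

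The remaining cathepsins of this class did not pass. CTSO was at -0.33 ± 0.15 and CTSV at -0.13 ± 0.08 without overlap between groups. CTSF, CTSL, CTSB and CTSK, the last best known from bone-resorbing osteoclasts, were at -0.20, -0.15, 0.02 and 0.42 with overlap. The 5 probe sets of CTSB lay between 0.02 and 0.23. CTSL and CTSV are close paralogs, and how their probe sets share sequence was not examined.

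Of the other proteases, none passed, although a TPP1 probe set did under other settings. LGMN, the asparaginyl endopeptidase legumain, which processes several cathepsins, read 247, 302 and 323 in controls and 355.6, 333.5 and 351.3 with BAHD1 siRNA. Its groups did not overlap, with control replicate 1 the lowest (0.26 ± 0.10 SE, limma adjusted p = 0.157, intensity trend), and without that array the difference was 0.15. TPP1, a tripeptidyl peptidase lost in late-infantile Batten disease, had 3 kept probe sets at -0.42, -0.34 and -0.12, each without overlap. The first of these read 124, 121 and 128 in controls and 91.5, 92.7 and 93.4 with BAHD1 siRNA and lay just outside the threshold (adjusted p = 0.0538, intensity trend). TPP1 was among the called genes after quantile or cyclic loess normalisation, with array medians centred, with array weights and with the stricter filter. CTSD, the main aspartic protease of the lysosome, was at -0.15 without overlap, and CTSA, the carboxypeptidase that also protects neuraminidase and beta-galactosidase, at -0.14.

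The cystatins, inhibitors of the cysteine cathepsins, were close to the control level by their brightest probe sets. CSTB, the cytosolic cystatin B, read 1679, 1540 and 1569 in controls and 1572, 1746 and 1633 with BAHD1 siRNA, with overlapping groups (0.05 ± 0.07 SE). A second, dim probe set of CSTB was at 0.35 with overlapping groups. CST3, the secreted cystatin C, was at 0.04 ± 0.07.

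Of the glycosidases, which trim sugars from glycoproteins, glycolipids and glycosaminoglycans, NEU1 fell and the other 8 measured genes did not pass. NEU1, the lysosomal sialidase, read 168, 180 and 150 in controls and 117, 117 and 109 with BAHD1 siRNA. The BAHD1 siRNA arrays were close to one another and all below the lowest control. NEU1 was at 69.3% of control (-0.53 ± 0.11 SE, limma adjusted p = 0.0232, intensity trend), and it was read by a single probe set. HEXA, the alpha subunit of beta-hexosaminidase, was at -0.25 ± 0.08 without overlap (adjusted p = 0.0984, intensity trend), and its 2 dimmer probe sets were at -0.39 and 0.30. GLA, GAA, GUSB, MAN2B1 and MANBA lay between -0.07 and 0.07, NAGLU was at -0.20 and IDUA at 0.40, each with overlapping groups. The probe set shared by GLB1 and TMPPE was at -0.10.

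The sulfatases IDS, ARSA and ARSB, which remove sulfate from glycosaminoglycans and sulfatide, did not pass. IDS, the iduronate sulfatase, read 249, 233 and 251 in controls and 274, 296 and 300.0 with BAHD1 siRNA by its brightest probe set. These groups did not overlap (0.24 ± 0.09 SE, limma adjusted p = 0.125, intensity trend), while the other 5 kept probe sets of IDS ran from -0.23 to 0.08. ARSA was at -0.36 and ARSB at 0.21, with overlap.

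The lipid hydrolases and their activators held an opposite pair: ASAH1 rose and PSAP fell. ASAH1, the acid ceramidase that splits ceramide into sphingosine and a fatty acid, had 4 kept probe sets, all higher. The brightest read 675, 674 and 756 in controls and 808, 978 and 949 with BAHD1 siRNA (0.37 ± 0.08 SE, limma adjusted p = 0.0284, intensity trend). A second read 436, 364 and 419 in controls and 545, 653 and 642 with BAHD1 siRNA (0.59 ± 0.09 SE, adjusted p = 0.00767, intensity trend). In both, BAHD1 siRNA replicate 1 was the lowest of its group and still above every control. The other 2 were at 0.19 without overlap and at 0.06 with overlap, so the size differed between probe sets.

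PSAP encodes prosaposin, the precursor of the saposins that present sphingolipids to their hydrolases, acid ceramidase among them. Its brightest probe set read 1521, 1557 and 1398 in controls and 1260, 1283 and 1182 with BAHD1 siRNA (-0.26 ± 0.07 SE, limma adjusted p = 0.0455, intensity trend). The second read 914, 936 and 903 in controls and 753, 799 and 718 with BAHD1 siRNA (-0.28 ± 0.07 SE, adjusted p = 0.0367, intensity trend). Both were thus lower by a like amount in every BAHD1 siRNA array, to 83.3% and 82.4% of control. After cyclic loess normalisation neither passed (adjusted p = 0.0596 and 0.0502), and after quantile normalisation the second did not (0.0524).

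GM2A, the activator of ganglioside breakdown, had 6 kept probe sets, from -0.56 to -0.00 and with overlapping groups. PPT1, a thioesterase lost in infantile Batten disease, was at -0.13 ± 0.06 without overlap. LIPA, the acid lipase of cholesterol ester breakdown, SMPD1, the acid sphingomyelinase, and GALC, the galactocerebrosidase, were at 0.05, 0.11 and -0.05 with overlap. GRN, the precursor of the granulins, which is secreted and taken up into lysosomes, read 391, 412 and 328 in controls and 320, 353 and 302 with BAHD1 siRNA. Its control replicate 3 lay inside the BAHD1 siRNA range (-0.21 ± 0.10 SE), and its other 2 probe sets were at -0.28 and -0.19.

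The other genes of the lysosome and of autophagy, 106 listed and 91 measured, were counted by their brightest kept probe sets. They included no rise and 4 falls, and 4 of 91 is no larger a share than the 5.52% called over all genes. A dimmer probe set of GGA2, a sorting factor, was also called lower (-0.59, limma adjusted p = 0.0333, intensity trend). The brightest probe set of GGA2 was at -0.24 and was not called. ATP6V1D and ATP6V1E1, subunits of the proton pump that acidifies the lysosome, fell by 0.39 and 0.38 on the log2 scale. A second bright probe set of ATP6V1D, at -0.56, was also called lower (limma adjusted p = 0.00815, intensity trend). However, the gene's dim kept probe sets did not move alike: they were at -0.37 and 0.45. Groups did not overlap in any of these probe sets. SUMF1, which activates the sulfatases, fell by 0.46, and MAP1LC3B, the autophagosome protein LC3, by 0.28 (limma adjusted p from 0.0237 to 0.0455 for the 4, intensity trend). In all, 64 of the 91 were lower and 27 higher, with a median of -0.11, against 45.6% lower and a median of 0.02 over all genes. Direction varied with signal over all probe sets, of which 60.9% were higher in the dimmest quartile and 42.1% in the brightest. The 91 were not compared within quartiles. By list, 11 of 15 proton pump subunits, 7 of 10 sorting factors, 15 of 18 further membrane proteins and 8 of 13 nutrient-sensing genes were lower. So were 12 of 15 autophagy genes, 4 of 6 MHC class II genes and 7 of 14 in the list of further hydrolases, which also holds SUMF1 and NPC2. After quantile normalisation 62 of the 91 were lower with a median of -0.10, against 46.8% of all genes. None of the 4 was called once control replicate 1 or 2, or replicate 2 or 3 of the BAHD1 siRNA arrays, was removed, or with no filter on dim probe sets.

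The 10 calls on lysosomal probe sets changed with the arrays used, as did those on all probe sets. They became 2, for LAMP2 and ASAH1, when control replicate 1 or 2 was removed, and likewise on removing replicate 2 or 3 of the BAHD1 siRNA group. Removing BAHD1 siRNA replicate 1 left 6, of which 5 were among the 10, and removing control replicate 3 left 9, of which 8 were. With no filter on dim probe sets, LAMP2 and ASAH1 again made up the 2 calls. Over all probe sets, the 1221 calls became 295 and 279 without control replicate 1 or 2, 186 and 177 without BAHD1 siRNA replicate 2 or 3, and 398 with no filter. They were 1132 without BAHD1 siRNA replicate 1 and 1174 without control replicate 3. Limma with one prior, which called none, called 5 when the filter was raised to the 75th percentile of signal: LAMP2, NEU1, 2 probe sets of ASAH1 and TPP1. That filter kept 13876 probe sets, and the one-prior calls over all of them are not given here. With it, the intensity-trend fit called 10 lysosomal probe sets and 1622 over all.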

How the data were processed

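RNA of 6 HEK293 samples was hybridised to 1 array each. The authors deposited one linear intensity per probe set; per the submitters' processing notes GCOS and GCRMA were used, with no version or role given. The deposited intensity values have a mean of 100 per array without the highest and lowest 2%, as GCOS scaling gives, so every value is relative to the rest of its array. Detection calls were not used here, so dim signals have no stated background.

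Groups and replicate numbers came from the titles. Values were taken as log2(signal + 1); 62 control probe sets were left out, and the filter kept 27458 probe sets (12529 genes by the brightest probe set). BAHD1 siRNA was compared with control siRNA with limma 3.58.1 in R 4.3.3, with one variance prior and with a prior that follows intensity (trend and robust), and Benjamini-Hochberg adjustment over all kept probe sets at 0.05. The fits were checked on simulated arrays. Genes were named through the platform annotation, with 0 member symbols updated. Array values are reported for called members, the smallest p of each role group, the MiT/TFE factors, and members without overlap that changed by at least 0.5; TPP1 was added after its values were seen. Of the pathway list, called genes are named. The members, lists and tests were chosen with earlier results of these data known. Those earlier results, known when the intensity-trend fit was chosen, had made calls only in that fit. The precision is limited by 3 arrays per group, where an exact permutation test cannot go below p = 0.1. Same-numbered replicates were not paired by their values (correlations of deviations 0.0101, 0.0102 and 0.0239).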

Additional observations from a re-analysis of the deposited data

Results flagged for a closer look

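The spiked poly-A control RNAs, which no comparison above uses, read higher in the BAHD1 siRNA arrays than in the control arrays, by 0.587 on the log2 scale over 24 probe sets (exact two-sided permutation p = 0.1, the smallest that 3 arrays against 3 can give). Their part in the lysosomal values was not tested.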

How the results depend on the processing

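With the replicate block the intensity-trend fit called 11 lysosomal probe sets, 10 of them shared with the fit without it, and BAHD1 was at -0.40. Calls over all probe sets were 1629 with the block and 1221 without it. The block changed no other count by over 1.5 times. Without a filter on dim probe sets 2 lysosomal probe sets and 0 other lysosome pathway genes were called. The stricter filter gave 5 lysosomal calls with one prior, for which no total over all probe sets is given. It gave 7 pathway calls, and a threshold of 0.1 gave 7 pathway calls. Over all probe sets the intensity-trend fit made 1622 and 2365 calls in these 2 settings. With one array left out, lysosomal calls ran from 2 to 9, pathway calls from 0 to 4, MITF from -0.00273 to 0.302 and TFE3 from -0.135 to 0.0868. The calls on LAMP2 and on the second ASAH1 probe set were kept in all 15 alternatives run on them, and the median over lysosomal genes lay between -0.0962 and -0.0188. The cause of these changes was not tested. Small changes are limited by 3 arrays per group. CTSK, ARSB and TFEB, with signals near the filter level on some arrays, are limited by signal over background.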
